A study of Mus musculus with 39 samples.

Results

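Microglia of amyloid-bearing and wildtype mice were compared for how their gene expression differed, 6 months on, between animals given 1 early dose of bacterial lipopolysaccharide (LPS) and animals given none. The quantity described is the interaction, (APP23 1xLPS minus APP23 PBS) minus (wildtype 1xLPS minus wildtype PBS), computed for all 10915 gene entries of the deposited expression table. It uses 29 of the 39 libraries, namely 9 wildtype PBS, 9 wildtype 1xLPS, 6 APP23 PBS and 5 APP23 1xLPS. A positive interaction means that the 1xLPS minus PBS difference was greater in APP23 than in wildtype. Any of the 4 group means can produce one, so the mean that stood apart is given for many of the genes below.

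All animals were female C57BL/6J mice. APP23 mice were hemizygous for a human amyloid precursor protein (APP) transgene with the KM670/671NL mutation, driven by the Thy-1 promoter, which is active in neurons and not a microglial promoter, and wildtype mice were their littermates. At 3 months of age every mouse received 4 daily intraperitoneal injections. The PBS groups received 4 of vehicle, and the 1xLPS groups 1 of LPS from Salmonella at 500 µg/kg and then 3 of vehicle. The 4xLPS groups received 4 of LPS at that dose. Their libraries, 6 wildtype and 4 APP23, entered the shared estimate of spread but not the interaction described. Microglia were sorted and sequenced as bulk polyadenylated RNA at 9 months, so each value is an average over sorted cells, and fewer cells of a type cannot be told apart from less RNA per cell. Nothing in the labels ties each library to its own animal, and the p-values therefore reflect only how far these libraries scattered, which may be partly technical.

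Microglia are the resident macrophages of the brain. They sense LPS through Toll-like receptor 4 with its coreceptor CD14, and a first exposure can leave them more responsive (training) or less responsive (tolerance) to a later stimulus. In amyloid models, microglia near plaques lower their homeostatic genes and raise genes of lipid handling, lysosomes and antigen presentation. MHC class I molecules present peptides from inside the cell, and MHC class II molecules, loaded with the help of the invariant chain, present peptides taken up from outside.

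Values are levels on the log2 scale after the authors' normalization and surrogate variable correction. Library means lay between 9.00 and 9.01, and sequencing depth is unknown. The defining genes of microglia were at the top of the scale: Cx3cr1, P2ry12 and Tmem119 had mean levels of 13.3, 12.8 and 12.8, at or above the 99.8th percentile of all entries. Around the 6 group means of the full series the table held 24 independent residual directions, where 33 would be counted from the number of libraries, because the correction had removed 9. The test used 24. Genes that pass only with 33 are identified as such.

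Few interactions passed the test. In limma's moderated test with Benjamini-Hochberg adjustment over all entries, 4 of 10915 had an adjusted p under 0.05 (0.0366%), 2 positive and 2 negative. The positive interactions were in the MHC class I genes H2-Q7 and H2-Q9, and the negative ones in Hsf2, a heat shock transcription factor, and Pspc1, a paraspeckle RNA-binding protein. At an unadjusted p under 0.05 there were 1332 entries (12.2%), of which 618 were positive (5.66%) and 714 negative (6.54%). With 33 residual degrees of freedom 370 passed (3.39%), of which 160 were positive (1.47%) and 210 negative (1.92%). The sizes were small: the median absolute interaction was 0.026, 516 entries exceeded 0.1, 25 exceeded 0.2, and 2, Fos and Spp1, exceeded 0.3. The median half-width of the 95% interval was 0.063, so an interaction of the median size was not detectable.

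**Figure D1:**
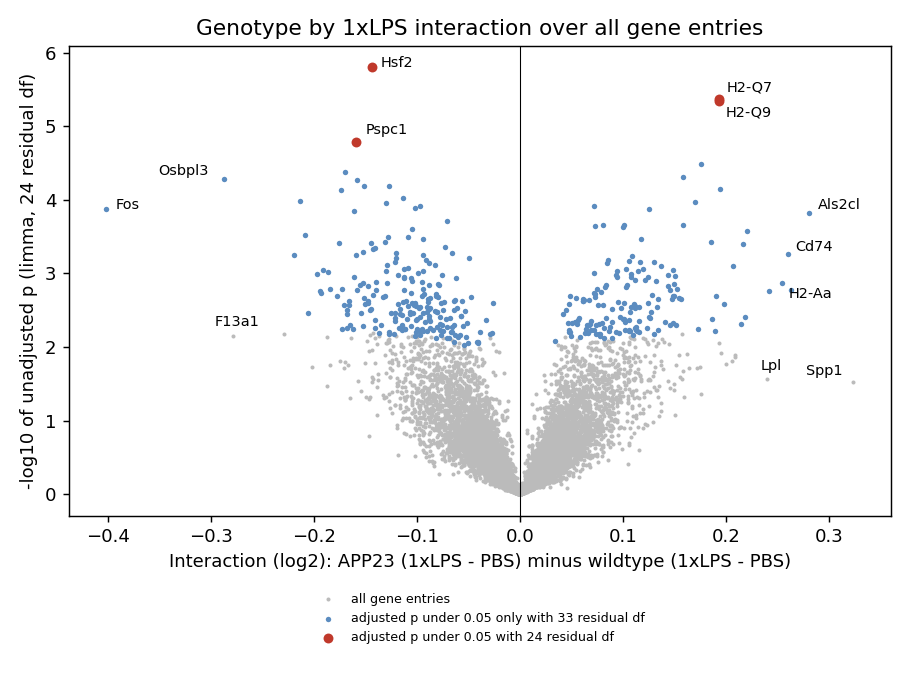
Interaction on the log2 scale (horizontal) against -log10 of the unadjusted p from limma with 24 residual degrees of freedom (vertical), 1 point per gene entry. The 4 red points are the genes that passed, H2-Q7 and H2-Q9 at 0.19, Hsf2 at -0.14 and Pspc1 at -0.16, and the wider interactions of Fos and Spp1 lie below them because their libraries spread more.

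H2-Q7 encodes a nonclassical MHC class I molecule (GRCm38 chromosome 17, 35439155 to 35443773, plus strand, protein coding). In wildtype its level ran from 6.87 (median 6.95) to 7.02 after PBS and from 6.84 (median 6.88) to 6.93 after 1xLPS. In APP23 it ran from 6.87 (median 6.90) to 6.93 after PBS, and the 5 libraries after 1xLPS were at 7.002, 6.998, 7.12, 7.05 and 6.98. All 5 APP23 1xLPS libraries were thus above every APP23 PBS and every wildtype 1xLPS library, while they overlapped wildtype PBS. The means were 6.95 ± 0.043 (SD, n = 9), 6.88 ± 0.030 (n = 9), 6.90 ± 0.029 (n = 6) and 7.03 ± 0.057 (n = 5) in that order. The interaction was 0.19 (SE 0.0342, adjusted p = 0.0163, limma), a 1.14-fold ratio between the LPS to PBS ratios of the genotypes. APP23 1xLPS was the group farthest from the rest and held 74.7% of the sum of squares between the 4 means.

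H2-Q9 gave nearly the same numbers, with an interaction of 0.19 (SE 0.0342, adjusted p = 0.0163). Its level differed from that of H2-Q7 by 0.00098 to 0.0061 in every library. The genes are near-identical copies, and the sources do not state how reads shared between them were counted, so they are 1 observation and which copy gave it is uncertain. Both levels lay below the lower quartile of all entries (8.08).

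Hsf2 (chromosome 10, 57486385 to 57513135, plus strand, protein coding) is a transcription factor of the heat shock family. Its level in wildtype ran from 6.50 (median 6.52) to 6.53 after PBS and from 6.53 (median 6.59) to 6.63 after 1xLPS. In APP23 it ran from 6.57 (median 6.59) to 6.61 after PBS and was 6.52, 6.51, 6.49, 6.49 and 6.58 after 1xLPS. The means crossed: wildtype PBS (6.52) and APP23 1xLPS (6.52) were low, and wildtype 1xLPS (6.59) and APP23 PBS (6.59) were high. The interaction was -0.14 (SE 0.0238, adjusted p = 0.0163, limma), and no group held more than 48.6% of the sum of squares between means. Hsf2 too lay below the lower quartile of levels.

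Pspc1 (chromosome 14, 56720710 to 56778316, minus strand, protein coding) had the same crossed order. Its level in wildtype ran from 8.06 (median 8.10) to 8.16 after PBS and from 8.15 (median 8.19) to 8.24 after 1xLPS. In APP23 it ran from 8.12 (median 8.17) to 8.19 after PBS and was 8.12, 8.12, 8.06, 8.03 and 8.11 after 1xLPS. Every wildtype 1xLPS library was above every APP23 1xLPS library, and the other pairs of groups overlapped. Wildtype 1xLPS was the farthest mean and held 65.9% of the sum of squares between means. The interaction was -0.16 (SE 0.0307, adjusted p = 0.044, limma). Leaving out any of 6 single libraries ended this call, with adjusted p up to 0.0877.

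**Figure D2:**
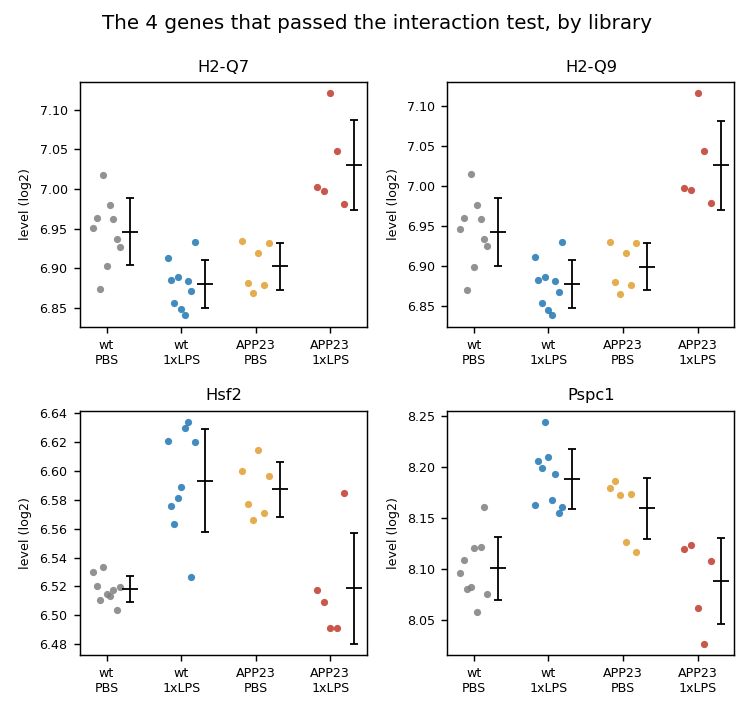
Level on the log2 scale of H2-Q7, H2-Q9, Hsf2 and Pspc1 in each library of the 4 groups (wt, wildtype), with the group mean and SD beside the points; the vertical axes do not start at 0. The 5 APP23 1xLPS libraries of H2-Q7 sit between 6.98 and 7.12, and Hsf2 and Pspc1 show the crossed order of means.

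The stretch of 150 bases before the start of transcription is shown for the called genes with a RefSeq window (GRCm38.p6) and for a pair of MHC class II genes described further on. The capitals mark CCAAT, the core bound by NF-Y, and CACGTG, the E-box, on either strand. These letters stood in the same 150 bases of 28.7% and 6.55% of the 8779 windows matched to measured genes. The windows are H2-Q7 chr17:35439005-35439154 (plus strand), Hsf2 chr10:57486235-57486384 (plus), Pspc1 chr14:56778319-56778468 (minus), H2-Aa chr17:34287824-34287973 (minus) and H2-Eb1 chr17:34305717-34305866 (plus). All of the H2 genes shown held CCAAT within 60 bases of the start, H2-Q7 and H2-Eb1 in 2 places each. Hsf2 held it at -147, and Pspc1 held neither set of letters. The share of all windows with CCAAT within 60 bases was not counted, and so few picked windows allow no comparison of positive with negative genes. A match is a description of the letters and not of binding.
H2-Q7: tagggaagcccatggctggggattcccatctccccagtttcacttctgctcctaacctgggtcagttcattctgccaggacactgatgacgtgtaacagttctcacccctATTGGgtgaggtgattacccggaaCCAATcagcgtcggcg
Hsf2: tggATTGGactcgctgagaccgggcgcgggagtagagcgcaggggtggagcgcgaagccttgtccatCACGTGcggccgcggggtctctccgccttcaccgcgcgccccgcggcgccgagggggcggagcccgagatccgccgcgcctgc
Pspc1: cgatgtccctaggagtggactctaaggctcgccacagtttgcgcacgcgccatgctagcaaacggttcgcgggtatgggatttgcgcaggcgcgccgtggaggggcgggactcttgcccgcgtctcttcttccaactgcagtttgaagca
H2-Aa: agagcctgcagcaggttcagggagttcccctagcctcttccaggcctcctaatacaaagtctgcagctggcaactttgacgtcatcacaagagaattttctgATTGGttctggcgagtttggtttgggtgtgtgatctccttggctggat
H2-Eb1: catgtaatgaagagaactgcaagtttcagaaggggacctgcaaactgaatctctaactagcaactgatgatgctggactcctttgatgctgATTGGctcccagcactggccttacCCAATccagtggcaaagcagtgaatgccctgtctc

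Which group mean stood apart was read for every gene. A group was counted as accounting for a gene where letting its mean alone differ held at least 80% of the sum of squares between the 4 means. That sum also holds the average differences between genotypes and between treatments, so the share is not one of the interaction alone. Over all entries 1 group did so in 43.2%: wildtype PBS in 16.4%, APP23 1xLPS in 10.4%, wildtype 1xLPS in 8.69% and APP23 PBS in 7.75%. In the other 56.8% more than 1 mean was needed. Groups were weighted by their number of libraries; with equal weights the shares of wildtype PBS (13.7%) and APP23 1xLPS (13.5%) were close. Among the 1332 entries at an unadjusted p under 0.05 the same groups accounted for 16.6%, 10.2%, 5.71% and 6.68%, and 60.8% needed more than 1 mean. Among the 370 that passed with 33 degrees of freedom, 69.5% needed more than 1, and none of the 4 called genes was accounted for by 1 group. The 1xLPS minus PBS differences of the genotypes had opposite signs in 51.7% of all entries, in 94.6% of those at an unadjusted p under 0.05 and in 98.4% of the 370. Since those sets were chosen by the interaction itself, the last shares describe them and test nothing.

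**Figure D3:**
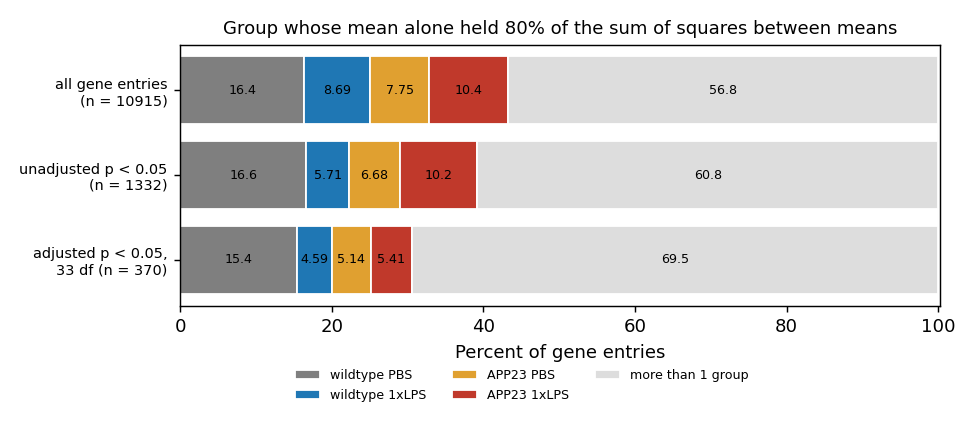
Percent of gene entries in which the mean of 1 group held at least 80% of the sum of squares between the 4 means, or more than 1 was needed. Bars show all entries, the set with an unadjusted p under 0.05 and the set with an adjusted p under 0.05 at 33 degrees of freedom (df). Wildtype PBS was the commonest single group in each bar, at 16.4%, 16.6% and 15.4%.

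APP23 1xLPS was the farthest mean in the MHC class I heavy chain genes described singly. It accounted for H2-D1, H2-K1 and H2-T22, whereas H2-Q7, H2-Q9 and H2-Q6 were not accounted for by any group alone. These genes, like the other genes below, were named after their values were seen unless the rule in the methods names them. H2-D1, a classical class I heavy chain, ran from 10.996 (median 11.07) to 11.10 in wildtype PBS, 11.04 (median 11.06) to 11.12 in wildtype 1xLPS and 11.03 (median 11.08) to 11.11 in APP23 PBS. In APP23 1xLPS it ran from 11.13 (median 11.16) to 11.24, above every library of the other 3 groups. That group held 98.6% of the sum of squares, and the interaction was 0.084 (SE 0.0268, adjusted p = 0.182, and 0.0341 with 33 degrees of freedom). H2-K1, the other classical heavy chain, had an interaction of 0.069 (adjusted p = 0.24), and APP23 1xLPS held 92.8%. For H2-T22 these values were 0.074 and 89.5%, and for H2-Q6 they were 0.11 and 67.3%.

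Of the 21 measured genes of class I presentation, 6 had a positive and 1 a negative interaction at an unadjusted p under 0.05, and 1, H2-Q7, was called. Over all entries these shares were 5.66% positive and 6.54% negative, and every such count of list or module members below is to be read against them. The list's median was 0.023, against -0.0016 over all entries, and 17 of 21 were positive. Its mean level ran from 9.946 to 10.02 in APP23 1xLPS and from 9.91 to 9.948 in wildtype PBS. In wildtype 1xLPS it ran from 9.911 to 9.95 and in APP23 PBS from 9.914 to 9.947, so the ranges overlapped. With libraries left out singly, H2-Q7 (0.17), H2-Q9 (0.17), H2-D1 (0.066), H2-K1 (0.052) and H2-Q6 (0.078) had their lowest interaction without APP23 1xLPS replicate 3. H2-T22 had its lowest without APP23 1xLPS replicate 1 (0.064). Irf1, a transcription factor induced by interferon, had an interaction of 0.11 (SE 0.0279, adjusted p = 0.124), and APP23 1xLPS was its farthest mean (73.2%). In the interferon list 2 of 31 measured genes were positive at an unadjusted p under 0.05, none was negative, and the median was 0.0022.

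Nup153, a nuclear pore protein, was the clearest single-group case among the genes named by smallest p. Its level ran from 9.81 (median 9.90) to 9.96 in wildtype PBS, from 9.81 (median 9.88) to 9.94 in wildtype 1xLPS, from 9.83 (median 9.86) to 9.96 in APP23 PBS and from 9.98 (median 10.01) to 10.03 in APP23 1xLPS. The 5 APP23 1xLPS libraries were above all 24 others. The interaction was 0.16 (SE 0.0374, adjusted p = 0.0841), and APP23 1xLPS held 95.6%. In the opposite direction Ncoa2, a coactivator of nuclear receptors, had means of 10.76, 10.80 and 10.81 in wildtype PBS, wildtype 1xLPS and APP23 PBS and 10.68 in APP23 1xLPS. Its interaction was -0.17 (SE 0.0351, adjusted p = 0.0626).

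Spp1, which encodes osteopontin and marks plaque-associated microglia, had the widest positive interaction but spread strongly. The 5 APP23 1xLPS libraries were at 7.69, 7.54, 7.42, 7.31 and 7.99, and the other groups ran from 6.97 to 7.54. All of these levels lay below the lower quartile of all entries (8.08). The interaction was 0.32 (SE 0.141, adjusted p = 0.344), and without the highest APP23 1xLPS library, replicate 5, it was 0.22. Of 27 measured genes of the plaque-associated list 5 were positive at an unadjusted p under 0.05 (Timp2, Lpl, Ank, Itgax and Spp1) and none was negative, against 5.66% positive and 6.54% negative over all entries, with a median of 0.0077. Different groups stood apart in these 5: APP23 1xLPS in Spp1 and Timp2, wildtype 1xLPS in Lpl and Ank, and APP23 PBS in Itgax. Trem2, a lipid-sensing receptor of this program, had 0.0077 (SE 0.0229), and Apoe, the lipid carrier apolipoprotein E, had -7.37e-05 (SE 0.0592). Stag3, a cohesin subunit of meiosis, had 0.12 (SE 0.0741, adjusted p = 0.533), and APP23 1xLPS held 85.2% of its sum of squares. Senp8, the NEDD8 protease, had -0.11 (SE 0.0391, adjusted p = 0.251), with 61.2% in APP23 1xLPS.

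APP23 PBS was the farthest mean, at lower levels, in Cd74 and the class II chains H2-Aa, H2-Ab1 and H2-Eb1, with shares above 80% in Cd74 and H2-Ab1 only. Cd74, the invariant chain, ran from 10.52 (median 10.56) to 10.64 in APP23 PBS, below every library of wildtype PBS (10.67, median 10.84, to 10.94) and of APP23 1xLPS (10.64, median 10.70, to 10.88). The wildtype 1xLPS libraries ran from 10.63 (median 10.73) to 10.84. The interaction was 0.26 (SE 0.0668, adjusted p = 0.117, and 0.0127 with 33 degrees of freedom), and APP23 PBS held 85.8% of the sum of squares.

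The class II alpha and beta chains, which Cd74 escorts, also had their lowest mean in APP23 PBS and their highest in wildtype PBS. H2-Aa, the class II alpha chain (chromosome 17, 34282744 to 34287823, minus strand), had means of 9.90 ± 0.099, 9.79 ± 0.057, 9.57 ± 0.065 and 9.72 ± 0.10 in wildtype PBS, wildtype 1xLPS, APP23 PBS and APP23 1xLPS. Its interaction was 0.25 (SE 0.0717, adjusted p = 0.141), with 70.3% in APP23 PBS, and all 9 wildtype 1xLPS libraries were below the wildtype PBS mean while all 5 APP23 1xLPS libraries were above the APP23 PBS mean. H2-Ab1 and H2-Eb1, beta chains, had 0.21 and 0.22 (adjusted p = 0.194 and 0.18), with 82.7% and 79.8% in APP23 PBS. Both passed with 33 degrees of freedom, as did H2-Aa and Cd74. Ciita, the master regulator of class II transcription, had 0.21 (SE 0.0795, adjusted p = 0.272), and there wildtype PBS was the farthest mean (75.8%). H2-Ob, a subunit of the accessory molecule DO that restrains peptide loading, had the opposite sign, -0.058 (adjusted p = 0.29).

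Across the 16 measured class II genes, 5 were positive and 1 negative at an unadjusted p under 0.05, against 5.66% positive and 6.54% negative over all entries. With 33 degrees of freedom 4 passed, all positive, against 1.47% over all entries, and the median was 0.0099. The list's mean level ran from 9.63 to 9.67 in APP23 PBS, from 9.66 to 9.74 in APP23 1xLPS, from 9.68 to 9.74 in wildtype 1xLPS and from 9.69 to 9.77 in wildtype PBS. Class II genes are also high in dendritic cells and border macrophages. Of 13 dendritic cell markers 6 were measured, none had an unadjusted p under 0.05, and their mean level ran from 7.54 to 7.63 in APP23 PBS, 7.51 to 7.58 in APP23 1xLPS, 7.59 to 7.64 in wildtype PBS and 7.54 to 7.65 in wildtype 1xLPS. Of 12 border macrophage markers 8 were measured, and 2 were negative and none positive at an unadjusted p under 0.05, F13a1 at -0.28 (SE 0.0962, adjusted p = 0.215) and Stab1 at -0.067. Their mean level ran from 8.37 to 8.43 in APP23 PBS, 8.34 to 8.41 in APP23 1xLPS, 8.35 to 8.46 in wildtype PBS and 8.39 to 8.48 in wildtype 1xLPS. The part of such cells in the class II values was not tested.

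**Figure D4:**
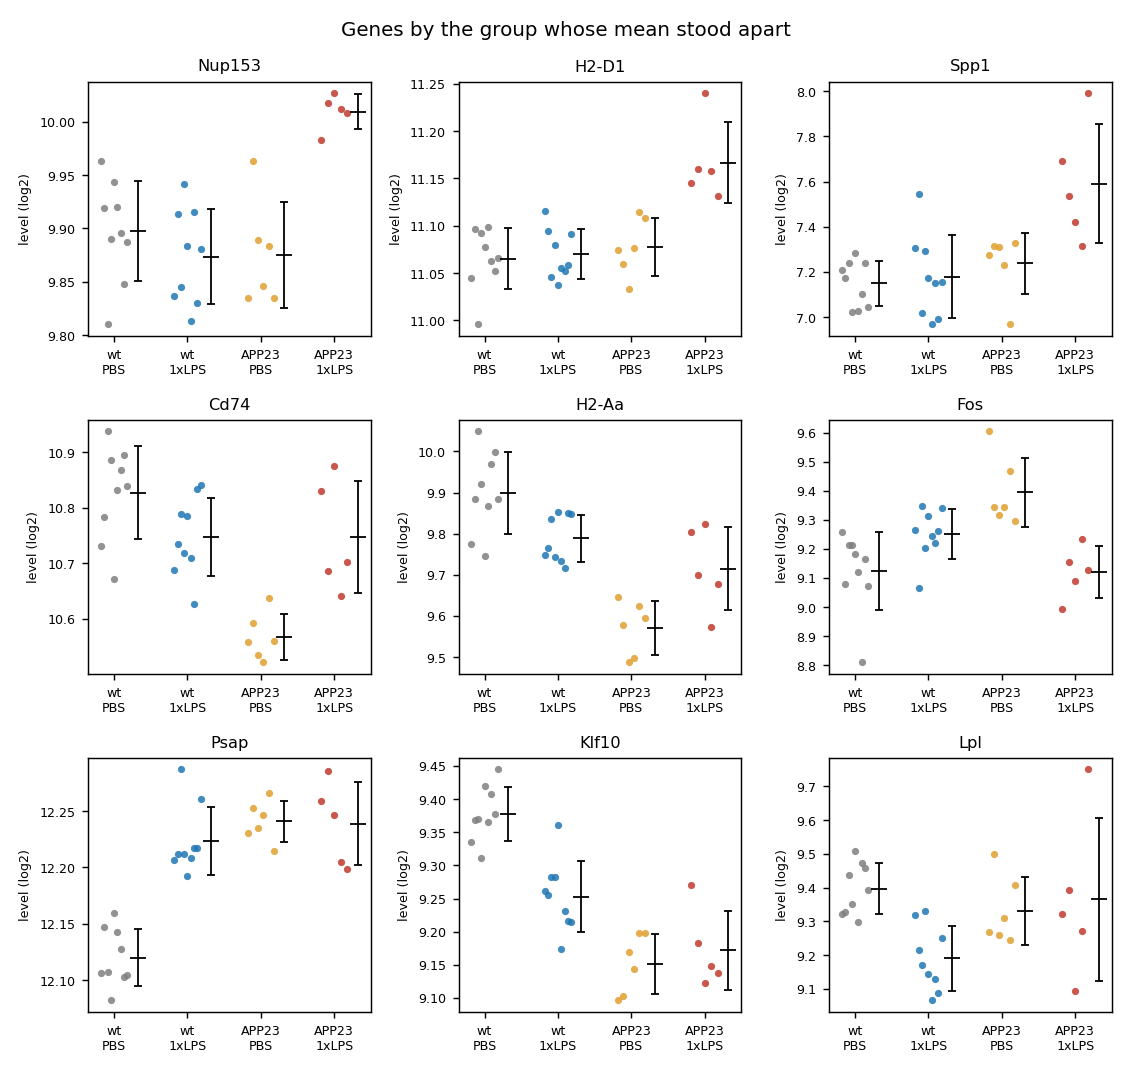
Level on the log2 scale in each library of the 4 groups (wt, wildtype), with the group mean and SD. Genes are ordered by the group with the farthest mean, and the vertical axes do not start at 0. APP23 1xLPS held most of the sum of squares in Nup153, H2-D1 and Spp1, APP23 PBS in Cd74, H2-Aa and Fos, wildtype PBS in Psap and Klf10, and wildtype 1xLPS in Lpl.

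APP23 PBS was also the farthest mean, at higher levels, in Fos, an immediate early transcription factor and the widest interaction in the table. In wildtype Fos ran from 8.81 (median 9.17) to 9.26 after PBS and from 9.06 (median 9.26) to 9.35 after 1xLPS. In APP23 it ran from 9.30 (median 9.34) to 9.60 after PBS and was 8.99, 9.16, 9.09, 9.23 and 9.13 after 1xLPS. The APP23 PBS libraries were above every wildtype PBS and every APP23 1xLPS library. The interaction was -0.40 (SE 0.091, adjusted p = 0.0664), a 0.757-fold ratio, and it passed with 33 degrees of freedom (adjusted p = 0.00471). APP23 PBS held 72.2%.

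Immediate early genes are also induced by cell isolation. Of the 21 measured genes of the immediate early and dissociation list, 19 had a negative interaction, 9 of them at an unadjusted p under 0.05, and 1, Klf6, was positive there, against 6.54% and 5.66% over all entries. The median was -0.078, the lowest of the 38 lists. The list's mean level ran from 9.39 to 9.45 in APP23 PBS, from 9.36 to 9.43 in wildtype 1xLPS, from 9.32 to 9.41 in wildtype PBS and from 9.34 to 9.39 in APP23 1xLPS. The group that stood apart differed from member to member. It was APP23 PBS, at higher levels, in Egr1 (-0.15, SE 0.102, 81.4%, and -0.089 without APP23 1xLPS replicate 2) and Klf2 (-0.072, SE 0.0279, 83.1%), and APP23 1xLPS, at lower levels, in Junb (-0.099, SE 0.0421, 90.7%) and Ier2 (-0.11, SE 0.0617, 99.5%). Wildtype PBS was the farthest, at lower levels, in Jun (-0.17, SE 0.0806, 71.8%) and Dusp1 (-0.18, SE 0.0731, 73.5%), a phosphatase that limits MAP kinase signals. The part of handling during isolation was not tested.

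The glucocorticoid list shares Dusp1 and the Hsp90 genes with the immediate early list. Of its 13 measured genes 5 were negative at an unadjusted p under 0.05 (6.54% over all entries), none was positive, and the median was -0.054. Sgk1, a kinase induced by glucocorticoids, had -0.077 (SE 0.0232, adjusted p = 0.156), and wildtype PBS was the farthest mean (86.0%). Mtor, the growth-controlling kinase, had -0.19 (SE 0.0514, adjusted p = 0.132). Its APP23 PBS libraries (10.14 to 10.20) were above every wildtype PBS (10.00 to 10.11) and APP23 1xLPS library (9.96 to 10.07). Egln1, the oxygen sensor that marks HIF-1 alpha for destruction, had -0.12 (SE 0.0419, adjusted p = 0.21), also with APP23 PBS farthest and high. Hif1a itself had 0.029 (SE 0.0264, adjusted p = 0.71). In the HIF-1 list 1 of 19 measured genes was positive and 4 were negative at an unadjusted p under 0.05, and the median was 0.0059. For glycolysis the counts were 2 positive and 1 negative of 21 (median 0.010).

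Wildtype PBS stood apart in Psap, which encodes the precursor of the saposins, lysosomal helpers of lipid breakdown (GRCm38 chromosome 10, 60277627 to 60302597, plus strand). It ran from 12.08 (median 12.11) to 12.16 in wildtype PBS, from 12.19 (median 12.21) to 12.29 in wildtype 1xLPS, from 12.21 (median 12.24) to 12.27 in APP23 PBS and from 12.20 (median 12.25) to 12.29 in APP23 1xLPS. Every wildtype PBS library was below all libraries of the other 3 groups. The interaction was -0.11 (SE 0.0292, adjusted p = 0.133), with 98.3% in wildtype PBS, and the means of the other groups were 12.22, 12.24 and 12.24. The lysosome list as a whole had 2 positive and 2 negative of 42 genes at an unadjusted p under 0.05 and a median of 0.0049.

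Other genes with wildtype PBS apart included regulators of signalling and chromatin. Klf10, a Kruppel-like factor induced by TGF-beta, had means of 9.38 in wildtype PBS, 9.25 in wildtype 1xLPS, 9.15 in APP23 PBS and 9.17 in APP23 1xLPS, and an interaction of 0.15 (SE 0.0419, adjusted p = 0.148, 81.5%). Pde4b, a phosphodiesterase that degrades cAMP, had 0.21 (SE 0.055, adjusted p = 0.13, 88.6%). Kat2a, a histone acetyltransferase, had -0.095 and its paralog Kat2b 0.12 (adjusted p = 0.117 and 0.156), with wildtype PBS at 92.4% and 86.3%. Chuk, the kinase IKK-alpha, had -0.071 (adjusted p = 0.198, 93.9%), and Rhob, a small GTPase, had -0.11 (adjusted p = 0.132, 80.9%).

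The genes that sense LPS had small values. Tlr4 had 0.045 (SE 0.0232, adjusted p = 0.442, 95% interval -0.0028 to 0.0922), and wildtype PBS was the farthest mean. Cd14 had -0.019 (SE 0.0201, adjusted p = 0.752). The cytokines Il1b and Tnf had -0.00084 (95% interval -0.129 to 0.127) and -0.020 (95% interval -0.148 to 0.107), so a difference of that width in either direction was not detectable. Their mean levels, 7.74 and 7.16, lay below the lower quartile of all entries (8.08). In the Toll-like receptor list 3 of 31 genes were negative at an unadjusted p under 0.05 and none was positive, and in the cytokine and NF-kB list 1 of 20 was negative. The clock gene Per1 had -0.097 (SE 0.074, adjusted p = 0.647, 87.6% in wildtype PBS).

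Among the 4 groups wildtype 1xLPS stood apart in Lpl, which encodes lipoprotein lipase and belongs to the plaque-associated list. It ran from 9.07 (median 9.17) to 9.33 there, against 9.30 (median 9.39) to 9.51 in wildtype PBS and 9.25 (median 9.29) to 9.50 in APP23 PBS, while the APP23 1xLPS libraries spread from 9.09 (median 9.32) to 9.75. The interaction was 0.24 (SE 0.104, adjusted p = 0.34, 92.7%), and it was 0.14 without APP23 1xLPS replicate 5, the highest library, which was also the highest in Spp1. Clec7a, the receptor dectin-1, had 0.058 (SE 0.0574, adjusted p = 0.733, 96.9%), and 0.029 without APP23 PBS replicate 5. Of the 21 measured genes of cholesterol and lipid handling, 6 were positive at an unadjusted p under 0.05 (5.66% over all entries) and none was negative, with a median of 0.0075. Efnb1, the ligand ephrin-B1, had -0.13 (SE 0.0272, adjusted p = 0.0626, 85.4% in wildtype 1xLPS). With the 4xLPS means included, the wildtype 1xLPS mean lay inside the range of the other 5 means in Lpl, Clec7a and Efnb1. In wildtype, 1xLPS and 4xLPS had means of 9.63 and 9.57 in Clec7a and of 9.24 and 9.26 in Efnb1.

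Of the remaining genes named by smallest p, Wdr55 (84.4%) and Dmap1 (80.4%) were accounted for by wildtype PBS, and the others needed more than 1 mean. In these others the farthest mean was wildtype PBS in Dock9, Ifi209, Osbpl3, Zdhhc14 and Pigc. It was APP23 PBS in Vps37c, Als2cl and Srpr, and wildtype 1xLPS in Fpgt. On the positive side, Dock9, an activator of the GTPase Cdc42, had 0.18 (SE 0.0356, adjusted p = 0.0626), Wdr55 0.16 (adjusted p = 0.0626), the interferon-inducible Ifi209 0.17 (adjusted p = 0.0664), Vps37c, an ESCRT-I subunit, 0.13 (adjusted p = 0.0664), Als2cl 0.28 (adjusted p = 0.0677), Srpr, the signal recognition particle receptor, 0.081 (adjusted p = 0.0841) and Dmap1 0.10 (adjusted p = 0.0841). On the negative side, Osbpl3, an oxysterol-binding protein, had -0.29 (adjusted p = 0.0626), the palmitoyltransferase Zdhhc14 -0.15 (adjusted p = 0.0626), Fpgt -0.21 (adjusted p = 0.0664) and Pigc, an enzyme of GPI anchor synthesis, -0.10 (adjusted p = 0.0664). The crossed order of Hsf2 recurred in Osbpl3, Zdhhc14, Fpgt and Pigc. In each, wildtype PBS and APP23 1xLPS had lower means than wildtype 1xLPS and APP23 PBS. For Osbpl3 these means were 8.24 and 8.23, against 8.36 and 8.40.

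**Figure D5:**
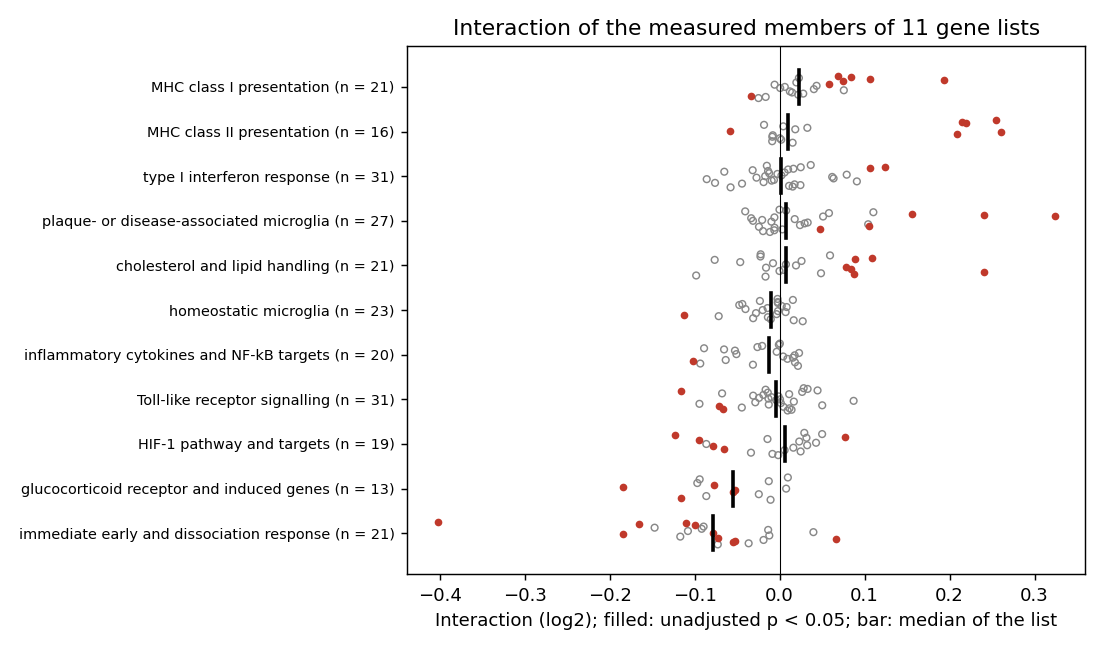
Interaction on the log2 scale of every measured member (points) of 11 gene lists, with filled points at an unadjusted p under 0.05 and a bar at each list's median. The medians lie between -0.078 for the immediate early and dissociation list and 0.023 for class I presentation, and the class II list splits into 5 genes above 0.2 and the rest near 0.

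Homeostatic microglia genes had 1 negative and no positive member of 23 at an unadjusted p under 0.05, and a median of -0.010. P2ry12, Tmem119 and Cx3cr1 had -0.0024 (SE 0.0369), -0.023 (SE 0.0411) and -0.0021 (SE 0.0408). Nuclear-encoded oxidative phosphorylation had 5 negative and no positive of 50 at that threshold, and cytosolic ribosomal proteins had 6 negative and 1 positive of 68 there. App, the mouse gene of the precursor protein, had 0.015 (SE 0.0194). Markers of monocytes and neutrophils, lymphocytes, astrocytes, oligodendrocytes, and endothelial and mural cells had no member at an unadjusted p under 0.05, and of the neuronal markers 1 was measured, Rbfox3, at -0.077.

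The authors' deposited table gives co-expression modules, which were built from libraries of this series. Members of a module vary together in these libraries, so their interactions tend to share a sign. One-sided counts therefore describe the modules and test nothing. Over all entries 5.66% were positive and 6.54% negative at an unadjusted p under 0.05. Of 878 genes of the yellow module 195 were positive and none negative at an unadjusted p under 0.05, and 84.5% had a positive sign. It holds H2-Q7, H2-Q9, H2-D1, H2-K1, Irf1, Cd74, H2-Aa and Klf10 per that table. Of 447 genes of the pink module, which holds Hsf2, Pspc1, Ncoa2, Fpgt and Pigc, 1 was positive and 96 negative. The brown module had 16 positive and 191 negative of 1296 and the turquoise module 154 positive and 33 negative of 1839. The counts were 33 and 54 of 792 in the green module, 43 and 27 of 733 in the red, 45 and 11 of 465 in the black, 30 and 94 of 1184 in the blue and 6 and 21 of 292 in the magenta, positive first. Genes in no module, listed as grey, had 95 positive and 187 negative of 2981.

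The interaction with 4 LPS injections in place of 1 shares both PBS groups with the one described, so the values are given side by side only. There 57 genes were called (0.522%), and 579 with 33 degrees of freedom (5.3%). Hsf2 had -0.14 with 1xLPS and -0.11 with 4xLPS (adjusted p = 0.0417, limma). H2-Q7 had 0.19 and 0.05 (SE 0.0371, adjusted p = 0.62), Pspc1 -0.16 and -0.08 (adjusted p = 0.241) and Nup153 0.16 and 0.01 (adjusted p = 0.94). Dock9 had 0.18 and 0.30 (adjusted p = 0.000155), Pigc -0.10 and -0.13 (adjusted p = 0.0219) and Klf10 0.15 and 0.21 (adjusted p = 0.029). Whether the values with 1 and 4 injections differ was not tested.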

How the data were processed

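Per the labels' protocols, cDNA was amplified from 3 ng of microglial RNA (Smart-seq v4) and 1 ng of it went into a Nextera XT library; the lane of a sample is not stated, so lane effects were not tested. Build mm10 and the tools STAR, HOMER, FastQC, limma and DESeq2 are listed, without roles, per the submitters' processing notes. The deposited levels were read as log2 values that the authors normalized and corrected by surrogate variable analysis, per the sheet name; no source states the log base, and depth is unknown. In the authors' deposited module table the score columns are correlations and the p-value columns their unadjusted p-values; module names only were used. The table held 10914 distinct symbols in 10915 entries, 16 turned into dates, and 1 column of no sample, which was not used.

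All 39 libraries were fitted with 6 group means using limma 3.58.1 under R 4.3.3; the fit had a mean-variance trend and, as covariates, the 9 directions without residual variance, after a test on simulated data. Standard errors may still be too small, since surrogate variables were estimated from the same values. No filter or pseudocount was used. The means that account for an interaction were found by letting 1 group differ, weighted by libraries.

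The members and lists were chosen with earlier results of these data known. Named were, among entries above the lower quartile of level with a gene name, up to 12 called in each direction or, up to 8, those with the smallest p, with up to 3 called members of each list and 23 genes regardless of result. Counts at an unadjusted p under 0.05 were added after seeing that 4 genes were called. Coordinates are from GENCODE M21, matched by symbol (H2-Q9 had no single match), and promoters from RefSeq. Promoters were found for 76.2% of the positive and 76.7% of the negative genes called with 33 degrees of freedom, under 80%, so the comparison of 9 motifs between these sets was void and is not given. Alternatives were the degrees of freedom, trend, robust moderation, 4 groups only, library weights, median centring, a filter on low levels, a replicate block and each library left out.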

Additional observations from a re-analysis of the deposited data

Results flagged for a closer look

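In 15 of the 69 genes examined singly, every APP23 1xLPS library lay on one side of the APP23 PBS mean and every wildtype 1xLPS library on the opposite side of the wildtype PBS mean. Over all entries this held for 171 (1.57%), 70 with APP23 higher and 101 with APP23 lower. Many of the 69 were named for their small interaction p or after their values were seen, so their higher share follows from how they were chosen. Of the 15, H2-Q7 (0.19), H2-Q9 (0.19), Hsf2 (-0.14) and Pspc1 (-0.16) passed the interaction test. The other 11 did not: Wdr55 (0.16), Ifi209 (0.17), Vps37c (0.13), Dmap1 (0.10), H2-Aa (0.25) and Pde4b (0.21) on the positive side, and Efnb1 (-0.13), Zdhhc14 (-0.15), Fpgt (-0.21), Pigc (-0.10) and Kat2a (-0.095) on the negative side.

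In 18 of 276 gene-by-group sets (6.52%) 1 library stood far from the rest of its group by Dixon's criterion, where chance gives about 1 in 20. In APP23 1xLPS these were Dmap1 (9.398, replicate 3), Ncoa2 (10.77, replicate 5), Senp8 (9.28, replicate 4), H2-D1 (11.24, replicate 3), H2-Ob (10.503, replicate 5), Hsf2 (6.58, replicate 5) and F13a1 (7.53, replicate 1). Without these libraries the interactions were 0.11 in Dmap1, -0.19 in Ncoa2, -0.095 in Senp8, 0.066 in H2-D1, -0.070 in H2-Ob, -0.16 in Hsf2 and -0.33 in F13a1. In APP23 PBS they were Ncoa2 (10.73, replicate 1), App (10.9002, replicate 1), Spp1 (6.97, replicate 5) and H2-K1 (10.84, replicate 3). In wildtype PBS they were Fos (8.81, replicate 7) and Clec7a (9.54, replicate 9), and in wildtype 1xLPS Dock9 (10.301, replicate 2), Vps37c (9.99, replicate 5), Tlr4 (11.73, replicate 1), H2-K1 (10.94, replicate 9) and Dusp1 (8.65, replicate 2). The interaction of Fos without its low wildtype PBS library was -0.36. All values are levels on the log2 scale.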

How the results depend on the processing

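The number of genes called, 4, depended strongly on the settings. It was 370 with 33 residual degrees of freedom, 320 with the 4 groups only, where most missing directions cannot be seen, 41 with library weights, 17 with libraries centred to 1 median, 9 with the replicate block and 0 with low entries left out (smallest adjusted p 0.0758 in limma, a filter that removes H2-Q7, H2-Q9 and Hsf2), against 1332 at an unadjusted p under 0.05 without that filter. It stayed at 4 without a trend and with robust moderation. Leaving out each of 29 libraries gave 3 to 21. Those fits still had 24 residual degrees of freedom, with 8 covariates, because 1 missing direction could no longer be seen, so they may be lenient. H2-Q7, H2-Q9 and Hsf2 passed in all 29 (limma, adjusted p up to 0.0424), whereas Pspc1 failed in 6. These were the fits without APP23 1xLPS replicate 4, wildtype 1xLPS replicate 3 or 7, APP23 PBS replicate 3 or 5, or wildtype PBS replicate 9.

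The share of entries that 1 group accounted for, 43.2%, was 66.2% at a threshold of 70%, 20.5% at 90%, 42.8% with equal weights and 30.5% among the genes called with 33 degrees of freedom. Of 540 values of named genes under 8 alternatives 443 kept direction and side of the threshold, 86 passed it, 1 (Pspc1, -0.16, low entries left out) no longer did and 10 changed sign, all near 0. With library weights these were P2ry12 (0.0045), Cx3cr1 (0.0094) and Il1b (0.0047), with median centring Apoe (0.0042), P2ry12 (0.0019), Cx3cr1 (0.0022) and Il1b (0.0034), and with the replicate block P2ry12 (0.0043), Cx3cr1 (0.0014) and Il1b (2.73e-05). With libraries left out, sign changes occurred in Apoe (-0.020 to 0.022), Trem2 (-0.00083 to 0.015), P2ry12 (-0.013 to 0.011), Cx3cr1 (-0.014 to 0.015) and Il1b (-0.026 to 0.019).

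Deviations from the group means correlated between libraries of the same replicate number with r from -0.378 to 0.278 over 36 pairs, 6 above 0.1. The levels had been corrected by removing 9 residual directions, and a shared deviation could have gone with them. Whether the numbers pair the samples therefore cannot be told, and the block is given for completeness. The causes of these shifts were not tested.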
